A study of Brachypodium distachyon with 4 samples.

Results

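The phenylalanine ammonia-lyase (PAL) family of Brachypodium distachyon, a small grass used as a model for temperate cereals, was followed in leaves of the mutant jmj1-1 and of the inbred line Bd21-3. The members were 8 published loci taken by identifier, not by any measured value, out of 35125 loci in the table of read counts. They are PAL1 (BRADI_3g49250v3), PAL2 (BRADI_3g49260v3), BRADI_3g49270v3, BRADI_3g49280v3, BRADI_3g47110v3, BRADI_3g47120v3, BRADI_3g48840v3 and BRADI_5g15830v3. All 8 identifiers were present in the table.

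The jmj1-1 group had 2 libraries and the Bd21-3 group had 2, and both genotypes carry the label Bd21-3 for their line. The plants, in either genotype, were leaf samples of day 17 at leaf stage 4, grown in a photoperiod of 20 h light and 4 h dark and taken at zeitgeber time 10 h. JMJ names denote JmjC-domain proteins, which include histone demethylases. The sources used here do not describe the jmj1-1 lesion or the number of independent lines. Nor do they say that replicate libraries were made from different plants, and p-values therefore cover only the spread between these libraries, which may be technical. JMJ1 itself was not used to check the labels, as no source here gives its locus. Library totals ranged from 13825916 to 16520046 counted reads. Identifiers in the table are not paired with names, so the gene names below are published locus assignments from general knowledge, and leaf identity could not be checked against named leaf genes.

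PAL removes ammonia from phenylalanine to give cinnamic acid, the step that carries carbon from amino acid metabolism into the phenylpropanoid pathway. The pathway feeds lignin, wall-bound hydroxycinnamates, flavonoids and defence compounds, and in grass leaves lignin is laid down mainly in xylem and in the fibres that flank the veins. Grass PAL families are built of close relatives, often in tandem, and some grass members also accept tyrosine and give p-coumaric acid directly. Reads that match several relatives could have been shared, lost or assigned to either, since the treatment of such reads is not given, and each member's value carries that uncertainty.

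The family's reads were held almost entirely by the neighbouring loci PAL1 and PAL2, and the family as a whole was slightly higher in jmj1-1. The 8 loci together had 18221 and 14889 reads in the jmj1-1 libraries, against 15110 and 15128 reads in the Bd21-3 libraries. As a share of all counted reads this was 0.113% and 0.108% in jmj1-1, against 0.0915% and 0.0938% in Bd21-3. Both jmj1-1 libraries therefore lay above both Bd21-3 libraries. In CPM, read counts scaled to a common library size by the trimmed mean of M-values (TMM), the summed family was at 1086 ± 45 CPM in jmj1-1 and 945 ± 16 CPM in Bd21-3 (SD, n = 2 each), 1.15-fold higher in the mutant. No p-value is given for this sum, and with 2 libraries against 2 an exact two-sided permutation test cannot go below p = 0.333. In bulk leaf RNA, a change in the number of cells that express a gene and a change in RNA per cell cannot be told apart.

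Most of the added signal was on PAL1 and PAL2. Of the 141 CPM by which the family mean was higher in jmj1-1, PAL1 held 76.2 CPM, PAL2 held 56.7 CPM and BRADI_5g15830v3 held 9.76 CPM. The plot of members by library shows the wide range of levels across the family.

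**Figure D1:**
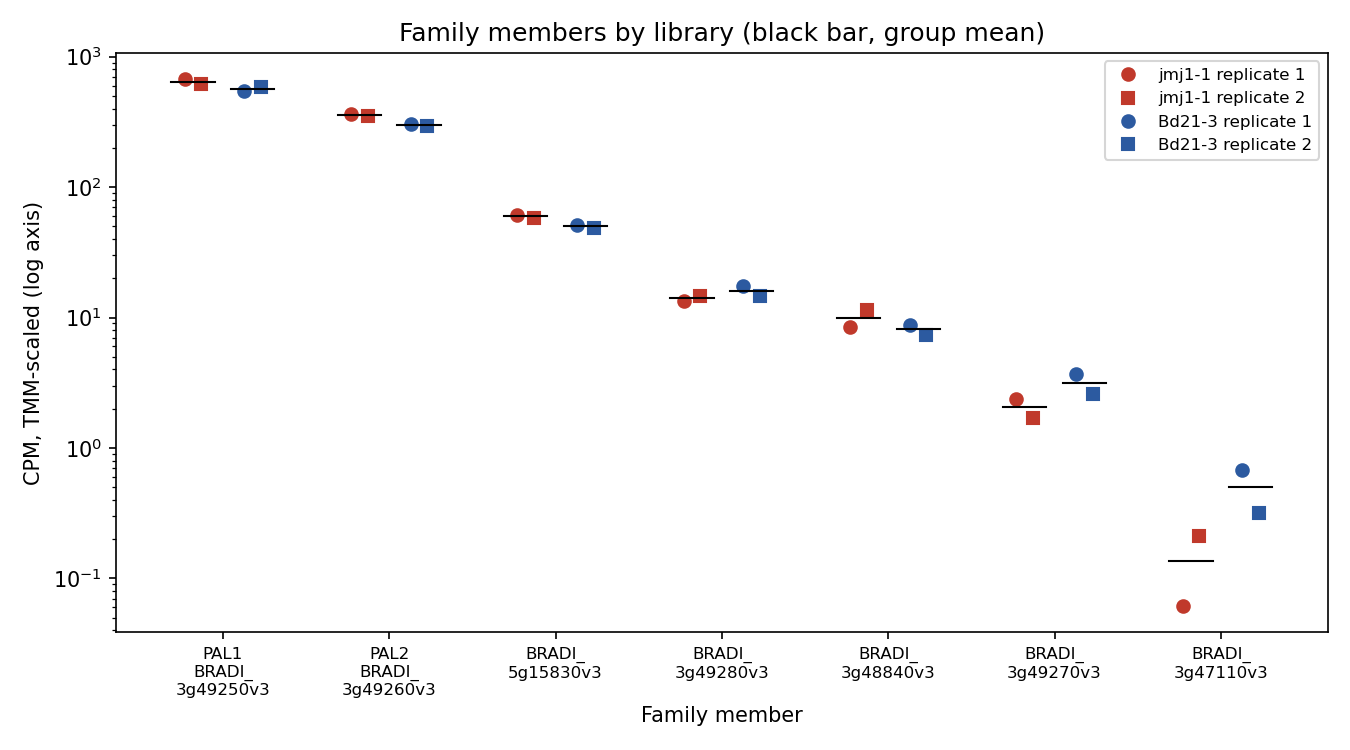
TMM-scaled CPM (log axis) of each family member with any read, by library, ordered by mean level; red points are the jmj1-1 libraries, blue points the Bd21-3 libraries, circles replicate 1, squares replicate 2, and black bars the group means. PAL1, PAL2 and BRADI_5g15830v3 have both jmj1-1 points above both Bd21-3 points, BRADI_3g49270v3 and BRADI_3g47110v3 have both below, and BRADI_3g47120v3, at 0 reads in every library, is not drawn.

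PAL1 had 10927 and 8740 reads in the jmj1-1 libraries, against 8893 and 9289 reads in the Bd21-3 libraries. After scaling this was 670 and 619 CPM in jmj1-1 and 549 and 587 CPM in Bd21-3. The groups did not overlap, but the gap between the lower jmj1-1 library and the higher Bd21-3 library was smaller than the spread within either genotype. PAL1 rose in jmj1-1 by a log2 change of 0.18 (SE 0.039, 95% interval 0.10 to 0.26, adjusted p = 4.48e-04 in edgeR's quasi-likelihood test). On the fold scale this was 1.13-fold (1.07 to 1.20). The rise rested in part on jmj1-1 replicate 1, since without that library the log2 change was 0.12 and the adjusted p was 0.18. The call was also lost when no filter on low counts was applied (adjusted p = 0.058), and over all alternatives the adjusted p ranged from 1.10e-07 to 0.18.

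PAL2 had 5893 and 4929 reads in the jmj1-1 libraries, against 4887 and 4668 reads in the Bd21-3 libraries. These counts correspond to 361 and 349 CPM in jmj1-1 and 302 and 295 CPM in Bd21-3. Here the gap between the genotypes was larger than the spread within either one. PAL2 rose by a log2 change of 0.25 (SE 0.041, 95% interval 0.17 to 0.33, adjusted p = 2.96e-06), or 1.19-fold. PAL2 passed the threshold under each of the 14 alternatives run, at log2 changes of 0.20 to 0.31. The PAL1 and PAL2 intervals overlap, and whether the pair differed in response was not tested.

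The ratio of reads between PAL1 and PAL2 does not depend on library scaling. There were 1.85 and 1.77 PAL1 reads per PAL2 read in the jmj1-1 libraries, against 1.82 and 1.99 in the Bd21-3 libraries. The genotypes overlapped in this ratio. PAL1 and PAL2 ranked 150 and 356 by mean CPM among 21456 tested genes, a rank of reads and not of transcripts, because the table holds no gene lengths.

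BRADI_5g15830v3, the one member on chromosome 5, ranked next by reads. It had 1005 and 824 reads in the jmj1-1 libraries, against 833 and 775 reads in the Bd21-3 libraries, or 61.6 and 58.3 CPM in jmj1-1 and 51.5 and 49.0 CPM in Bd21-3. Both mutant libraries were above both wild-type libraries, with a gap larger than the spread within either genotype. It rose by a log2 change of 0.26 (SE 0.064, 95% interval 0.13 to 0.39, adjusted p = 0.0025), close in size to PAL2. The call was lost without jmj1-1 replicate 1 (log2 change 0.22, adjusted p = 0.11) and in DESeq2 (adjusted p = 0.091). Its adjusted p lay between 1.94e-04 and 0.11 under the alternatives.

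The remaining members of the tandem group, which follow PAL2 by locus number, were not called in either direction. BRADI_3g49280v3 had 217 and 208 reads in the jmj1-1 libraries, against 283 and 233 reads in the Bd21-3 libraries. This was 13.3 and 14.7 CPM in jmj1-1 and 17.5 and 14.7 CPM in Bd21-3, where the values of jmj1-1 replicate 2 and Bd21-3 replicate 2 were nearly equal. The log2 change was -0.21 (SE 0.12, 95% interval -0.44 to 0.03, adjusted p = 0.28). It was -0.08 without Bd21-3 replicate 1, -0.13 without jmj1-1 replicate 1 and -0.33 without Bd21-3 replicate 2. Whether its response differed from that of PAL1 or PAL2 was not tested.

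BRADI_3g49270v3 had 39 and 24 reads in the jmj1-1 libraries, against 60 and 41 reads in the Bd21-3 libraries. Scaled, it was at 2.39 and 1.70 CPM in jmj1-1 and 3.71 and 2.59 CPM in Bd21-3, so both mutant libraries were lower. Its log2 change was -0.61, with the largest error among the tested members (SE 0.28, 95% interval -1.16 to -0.05). The value depended on single libraries, at -0.33 without Bd21-3 replicate 1, -0.40 without jmj1-1 replicate 2 and -0.89 without jmj1-1 replicate 1. It missed the threshold after adjustment (unadjusted p = 0.033, adjusted p = 0.16). Within single libraries, there were 0.357 and 0.275 reads of BRADI_3g49270v3 per 100 PAL1 reads in jmj1-1, against 0.675 and 0.441 in Bd21-3. For BRADI_3g49280v3 the same measure was 1.99 and 2.38 in jmj1-1, against 3.18 and 2.51 in Bd21-3. In both cases the jmj1-1 libraries lay below the Bd21-3 libraries. PAL1, the denominator, was itself higher in jmj1-1, so these ratios do not show a lower level of either locus.

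BRADI_3g48840v3 varied between replicates about as much as between genotypes. It had 139 and 161 reads in the jmj1-1 libraries, against 143 and 117 reads in the Bd21-3 libraries. In CPM this was 8.52 and 11.4 in jmj1-1 and 8.83 and 7.39 in Bd21-3, and the groups overlapped. The log2 change was 0.28 (SE 0.15, 95% interval -0.02 to 0.59, adjusted p = 0.26), an estimate as high as that of PAL2 with an error that does not separate it from 0. Leaving out jmj1-1 replicate 2 gave 0.07, and leaving out jmj1-1 replicate 1 gave 0.49.

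The pair BRADI_3g47110v3 and BRADI_3g47120v3 was close to unread in these leaves, and neither had enough reads to enter the test. BRADI_3g47110v3 had 1 read and 3 reads in the jmj1-1 libraries, against 11 and 5 reads in the Bd21-3 libraries. The ratio of its summed reads, scaled by library size, was 0.263 for jmj1-1 over Bd21-3 (exact Clopper-Pearson 95% interval 0.0640 to 0.815). That interval covers counting error only. BRADI_3g47120v3 had 0 reads in all 4 libraries. A count of 0 allows up to 3 reads, that is up to 0.184 and 0.212 CPM in the jmj1-1 libraries and 0.185 and 0.190 CPM in the Bd21-3 libraries.

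**Figure D2:**
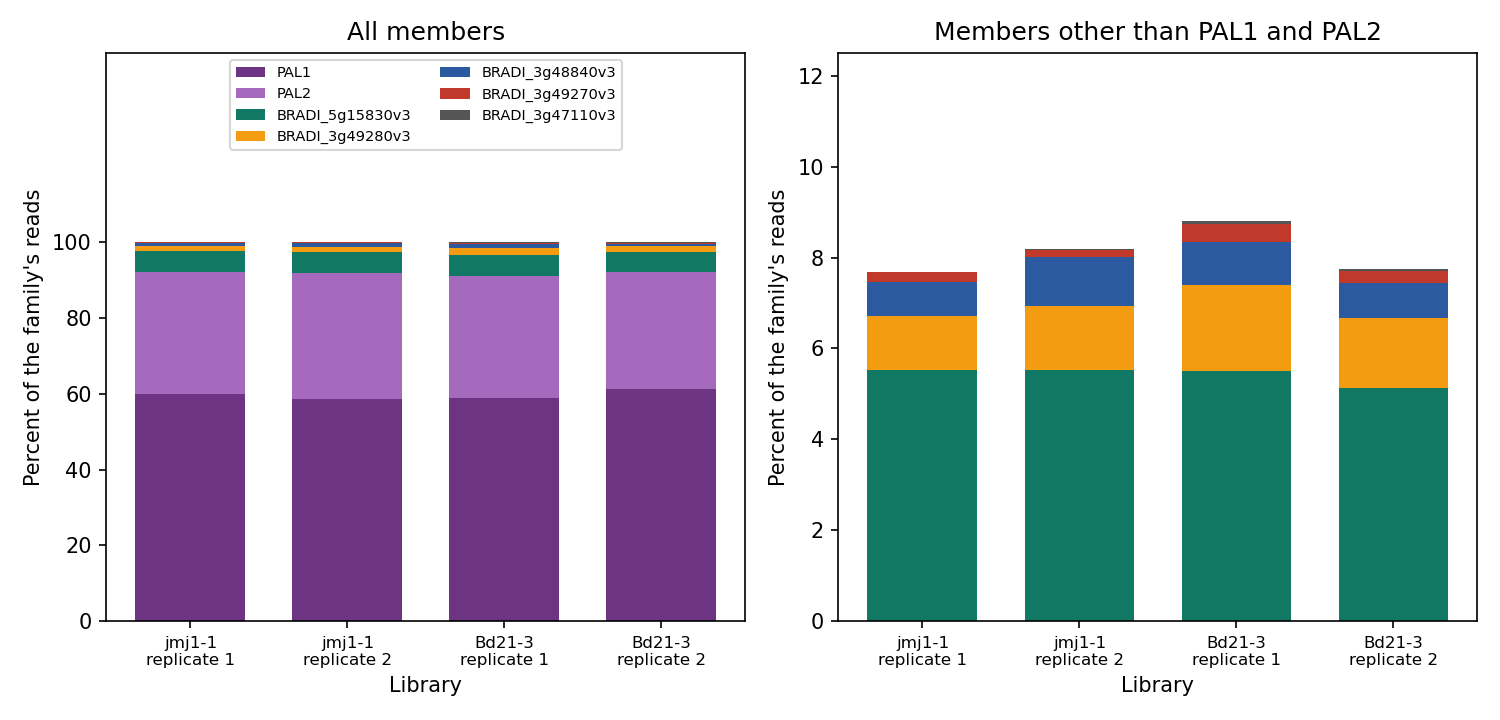
Percent of the family's reads held by each member in each library (left) and the same for the members other than PAL1 and PAL2 on a larger scale (right); each stacked bar is 1 library. PAL1 and PAL2 fill 91.2% to 92.3% of every bar, and the segments of BRADI_3g49280v3 and BRADI_3g49270v3 are thinner in both jmj1-1 bars than in both Bd21-3 bars.

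The shares of PAL1 and PAL2 in the family's reads overlapped between the genotypes. PAL1 held 60.0% and 58.7% of the family's reads in the jmj1-1 libraries, against 58.9% and 61.4% in the Bd21-3 libraries. PAL2 held 32.3% and 33.1% in jmj1-1, against 32.3% and 30.9% in Bd21-3. Together they held 92.1% ± 0.36 in jmj1-1 and 91.7% ± 0.75 in Bd21-3 (SD, n = 2 each).

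Among the smaller shares, those of the tandem relatives were lower in the mutant libraries, as parts of a total that was itself higher there. BRADI_5g15830v3 held 5.52% and 5.53% in jmj1-1, against 5.51% and 5.12% in Bd21-3. BRADI_3g49280v3 held 1.19% and 1.40% in jmj1-1, against 1.87% and 1.54% in Bd21-3, and BRADI_3g49270v3 held 0.214% and 0.161% in jmj1-1, against 0.397% and 0.271% in Bd21-3. BRADI_3g48840v3 overlapped, at 0.763% and 1.08% in jmj1-1, against 0.946% and 0.773% in Bd21-3. BRADI_3g47110v3 held at most 0.0201% in jmj1-1 and at least 0.0331% in Bd21-3. These are shares of reads, and lengths would be needed to turn them into shares of transcripts.

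By count, 3 of the 8 members rose, 3 did not pass the test and 2 could not be tested. Over all 21456 tested genes, 13.9% were called in either direction, 6.13% as higher and 7.75% as lower. Because detection depends on level, the share called higher among the 3570 genes with at least as many CPM as BRADI_5g15830v3 is also relevant, and it was 9.66%. No member was called lower by edgeR's quasi-likelihood test. At an unadjusted p under 0.05 in that test, 1 member (BRADI_3g49270v3) was lower, as were 2728 of all 21456 tested genes. DESeq2 and limma-voom called 0 members lower, beside 768 and 1615 of all tested genes. DESeq2 called 2 members higher, PAL1 and PAL2, where it called 2.4% of all genes higher. Among the tested members the log2 change ran from -0.61 to 0.28 with a median of 0.22, beside a median of 0.00327 over all tested genes. Both mutant libraries were above both wild-type libraries for 3 tested members, an order that 25.5% of all tested genes showed, and below them for 1, as for 25.3% of all tested genes.

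The rises were small among those of the genes called higher. The genes called higher in jmj1-1 had a median log2 change of 0.43, and only 8.90% of them changed less than PAL1. For PAL2 and BRADI_5g15830v3 these shares were 23.0% and 24.1%. Set against all 21456 tested genes by absolute log2 change, called or not, PAL1 was at percentile 60.7, PAL2 at 72.7 and BRADI_5g15830v3 at 73.6.

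**Figure D3:**
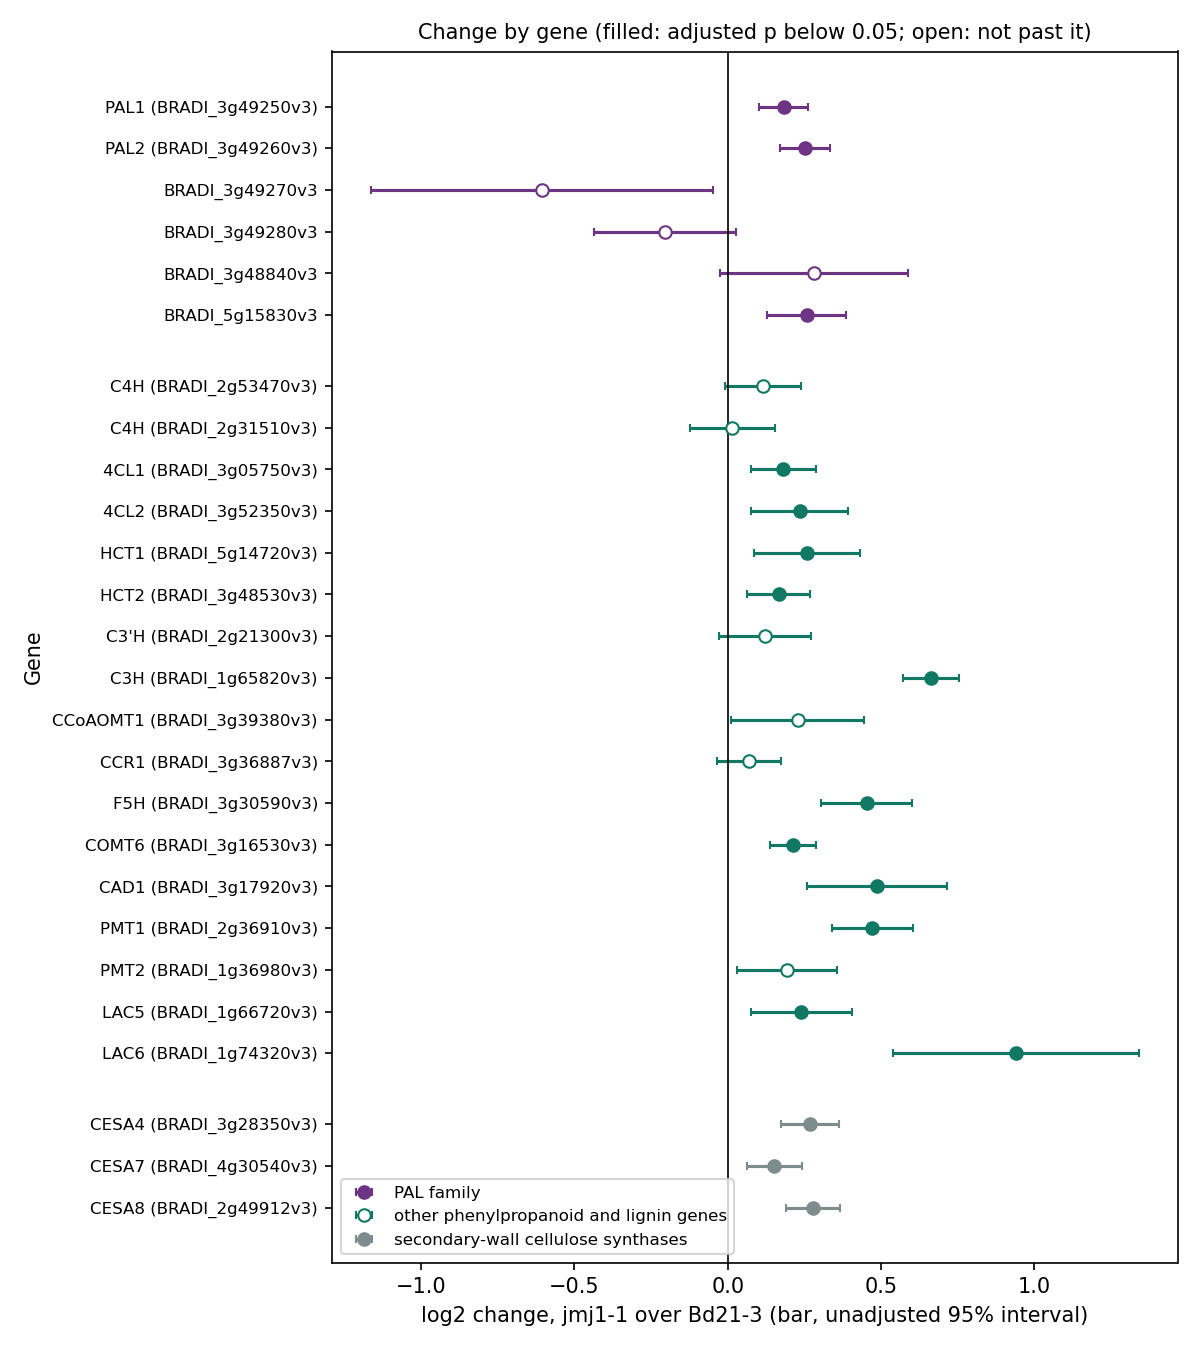
Log2 change of jmj1-1 over Bd21-3 from edgeR's quasi-likelihood fit, with unadjusted 95% intervals, for the 6 tested family members, 17 other phenylpropanoid and lignin genes and 3 secondary-wall cellulose synthase genes; filled points passed an adjusted p of 0.05. PAL1, PAL2 and BRADI_5g15830v3 sit between 0.18 and 0.26, inside the range of the other pathway genes, while BRADI_3g49270v3 and BRADI_3g49280v3 lie below 0 with intervals that are wide or cross it.

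The genes that act after PAL give the setting of these values. Of 17 such genes, all in the table and all tested, 11 rose, 0 fell and 6 did not pass the test (0 lower at an unadjusted p under 0.05, and 0 lower in DESeq2 or limma-voom). Of the whole set of 21456 tested genes, edgeR called 6.13% higher. The share was 9.66% among the 3570 genes at or above the level of BRADI_5g15830v3, a level that most of the 17 do not reach. The median log2 change of the 17 genes was 0.23, beside 0.00327 for the whole tested set. The count of 11 was sensitive to the settings. DESeq2 called 5 of the 17 higher, beside 2.4% of the whole tested set. In edgeR, 6 rose when TMM factors were squared, beside 953 of all 21456 tested genes. Without a filter on low counts 6 rose, beside 746 of all 28418 genes then tested. Leaving out either jmj1-1 library gave fewer than 11 of the 17, and also fewer genes called higher over the whole tested set.

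The genes of the step directly after PAL did not pass the test. Those for cinnamate 4-hydroxylase, C4H, which hydroxylates the cinnamic acid that PAL makes, had log2 changes of 0.11 (BRADI_2g53470v3, 95% interval -0.01 to 0.24, adjusted p = 0.26) and 0.02 (BRADI_2g31510v3, 95% interval -0.12 to 0.15, adjusted p = 0.94). BRADI_2g31510v3 turned to -0.04 when TMM factors were squared and to -0.07 without jmj1-1 replicate 1. The C4H gene on BRADI_2g53470v3 was at 65.4 and 61.9 CPM in jmj1-1, against 56.7 and 61.0 CPM in Bd21-3. Both 4CL genes, whose products join coenzyme A to hydroxycinnamates, rose by amounts like those of PAL1 and PAL2, 0.18 for 4CL1 (adjusted p = 0.013) and 0.23 for 4CL2 (adjusted p = 0.036). Those calls were lost in DESeq2 (adjusted p = 0.16 and 0.39) and with TMM factors squared (0.11 and 0.12). They were also lost without the filter on low counts (0.065 and 0.15). With 1 library left out, the log2 change was 0.15 to 0.21 for 4CL1 and 0.16 to 0.31 for 4CL2.

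The largest change near the entry of the pathway was at C3H (BRADI_1g65820v3), an ascorbate peroxidase type enzyme that hydroxylates free p-coumaric acid, the acid that tyrosine ammonia-lyase activity gives directly. It was at 211 and 210 CPM in jmj1-1, against 131 and 136 CPM in Bd21-3. It rose by 0.66 (SE 0.046, adjusted p = 3.91e-18), with an interval of 0.57 to 0.76 that lies above those of PAL1, PAL2 and BRADI_5g15830v3. The differences between C3H and these members were not tested directly.

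The later steps held the other larger rises. F5H, which directs monolignols to syringyl units, rose by 0.45, CAD1, a cinnamyl alcohol dehydrogenase, by 0.49, and PMT1, which attaches p-coumarate to monolignols, by 0.47 (adjusted p = 3.74e-06, 0.0013 and 9.19e-08). The CAD1 call was lost in DESeq2 (adjusted p = 0.073). LAC6, a laccase of lignin polymerisation, rose by 0.94 (SE 0.20, adjusted p = 3.38e-04) at 111 and 90 reads in jmj1-1, against 53 and 57 reads in Bd21-3. HCT1, HCT2, LAC5 and COMT6 rose by 0.17 to 0.26, in the range of the PAL members, and of these only COMT6 kept its call in DESeq2. The same held with TMM factors squared and without the filter on low counts. LAC5 moved to 0.14 (adjusted p = 0.41) without Bd21-3 replicate 2. C3'H, CCoAOMT1, CCR1 and PMT2 did not pass the test, at log2 changes of 0.07 to 0.23.

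Genes of secondary-wall cellulose synthesis, which mark cells that form thick walls such as xylem and fibres, were higher alongside PAL. CESA4, CESA7 and CESA8 rose, 3 of 3, by 0.27, 0.15 and 0.28, where 6.13% of all tested genes were called higher. Among the 3570 genes with at least as many CPM as BRADI_5g15830v3, which include these 3, the share was 9.66%. The CESA7 call was lost in DESeq2 (adjusted p = 0.11), with TMM factors squared (0.15), without the filter on low counts (0.088) and without jmj1-1 replicate 1 (log2 change 0.11, adjusted p = 0.37). Their summed level was 684 to 735 CPM in the jmj1-1 libraries, against 594 to 612 CPM in the Bd21-3 libraries, and none was near 0. The part of such cells in the PAL rise was not tested.

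The genes whose profile over the 4 libraries was most like the family total were BRADI_2g24340v3 and BRADI_1g24830v3. Their log2 CPM, centred on each gene's mean, differed from the centred family total by a root mean square of 0.0024 and 0.0034. BRADI_2g24340v3 was at 20.8 and 19.8 CPM in jmj1-1, against 17.5 and 17.9 CPM in Bd21-3, and BRADI_1g24830v3 at 21.7 and 20.4 CPM in jmj1-1, against 18.2 and 18.5 CPM in Bd21-3. Neither passed the test at its lower read depth (log2 change 0.20 for both, adjusted p = 0.20 and 0.19). Of 15171 genes at 5 CPM or more outside the family, 695 came within 0.05 of the family profile, so over 4 libraries this likeness is shared by many genes.

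**Figure D4:**
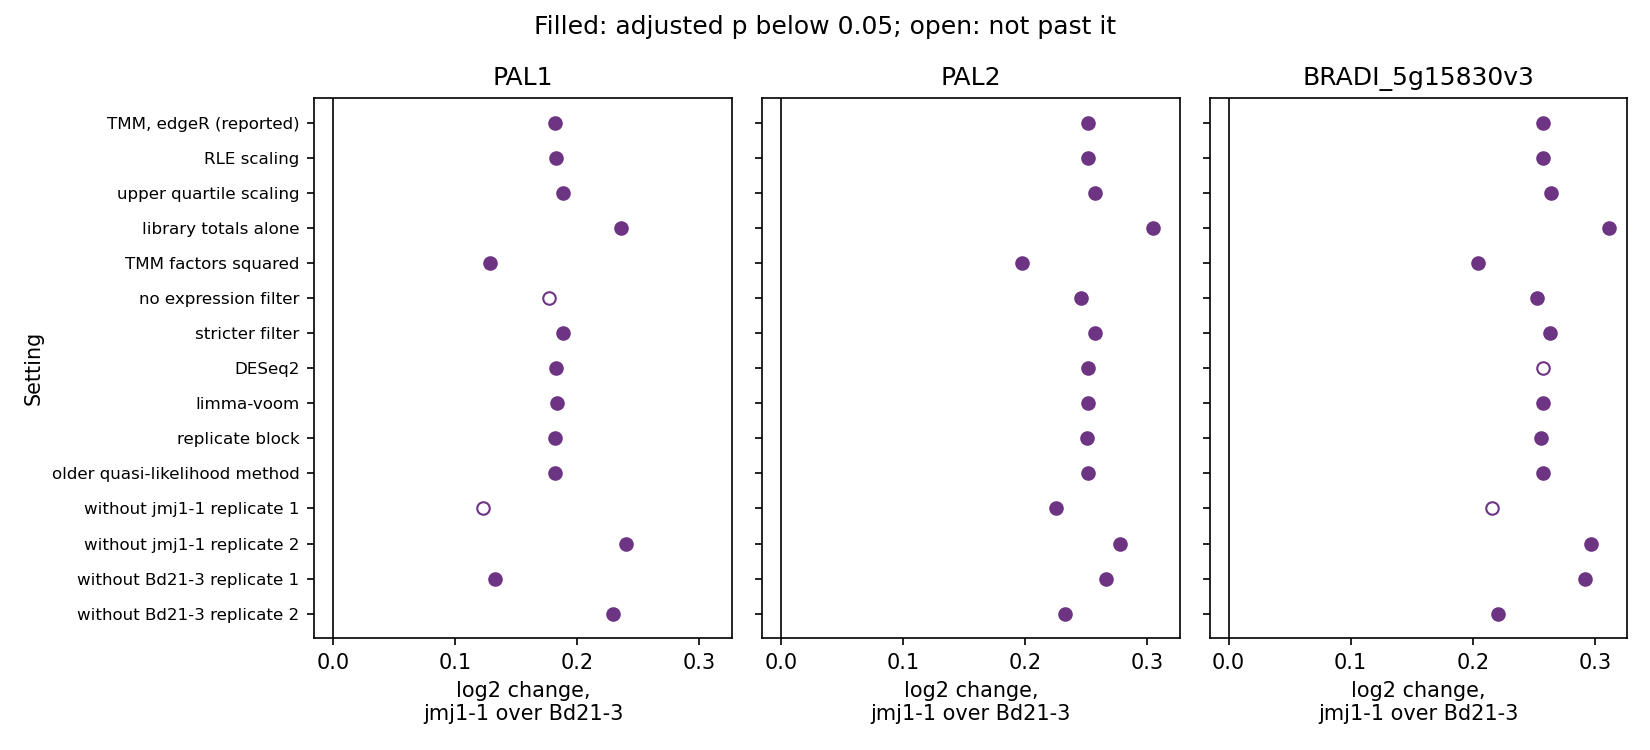
Log2 change of PAL1, PAL2 and BRADI_5g15830v3 in jmj1-1 over Bd21-3 under the reported fit and each of 14 alternatives, down the page; filled points passed an adjusted p of 0.05. All points lie above 0, and the open points are PAL1 without jmj1-1 replicate 1 and without the expression filter, and BRADI_5g15830v3 without jmj1-1 replicate 1 and in DESeq2.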

How the data were processed

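The authors deposited raw read counts per gene, with the 4 libraries in separate columns, per the file headers. The values are whole numbers with different column totals. Per the submitters' processing notes, cutadapt, HISAT2, SAMtools and featureCounts were used. Genome build, annotation, strand setting and handling of multiply matching reads are not stated in those notes. Columns were matched to samples by title.

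Testing used edgeR 4.0.16 (R 4.3.3) on the counts as deposited: filterByExpr, TMM, quasi-likelihood F-test, two-sided, Benjamini-Hochberg adjustment over all 21456 tested genes, threshold 0.05. Standard errors are the absolute log2 change over the square root of F, and intervals are unadjusted. The fit was also run on simulated data with planted changes larger than those of the called PAL members. That run does not show how well changes of their size are found. Alternatives were other scalings, filters, DESeq2 1.42.0, limma-voom (limma 3.58.1), a replicate block and leaving out each library. The members and lists were chosen by published locus number, with earlier results of these data known. All members, the 17 listed pathway genes and the 3 listed wall markers were named, and the 2 genes nearest the family profile were taken by rule. Replicates were not copies (chi-square per degree of freedom 1.84 in jmj1-1 and 2.41 in Bd21-3, against 9.05 for replicate 1 of each). No sequence is shown, because none was used here.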

Additional observations from a re-analysis of the deposited data

How the results depend on the processing

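PAL2 kept its direction and its side of the threshold under all 14 alternatives. PAL1 was at 0.18 without the expression filter, past the threshold no longer, and at 0.12 to 0.24 with 1 library left out. BRADI_5g15830v3 was at 0.26 in DESeq2, where its call was lost, and at 0.22 to 0.30 with 1 library left out. Every member called with 1 library left out was higher. The calls of PAL1 and BRADI_5g15830v3 were lost without jmj1-1 replicate 1, where fewer genes were called over the whole tested set too. The pathway genes called, all higher, numbered 6 with TMM factors squared, 6 without the filter, 5 in DESeq2 and 6 to 9 with 1 library left out. The C4H gene BRADI_2g31510v3 turned to -0.038 with TMM factors squared and ranged from -0.071 (without jmj1-1 replicate 1) to 0.092 with 1 library left out. The family total had a log2 ratio of 0.20, and 0.15 to 0.25 over the scalings. Over all genes, 2978 were called, 1315 higher and 1663 lower. Without the filter these were 1788, 746 and 1042, and in DESeq2 1283, 515 and 768. Leaving out 1 library gave 1792 to 2856 calls, 749 to 1236 higher and 1042 to 1620 lower, with less power by construction. Library totals alone gave 2041 higher, or 64.1% of calls against 44.2% with TMM, and TMM factors squared gave 28.1%. The cause of the other differences was not tested. With the replicate block there were 3140 calls, and the members' calls stayed as they were. Deviations of same-numbered libraries correlated at -0.017, and the labels give no pairing. The older quasi-likelihood method, chosen after seeing the data, gave 2956 calls and the same 3 members. Fits with 1 library of a genotype assume that it varies like the other genotype. At 24 to 60 reads per library, BRADI_3g49270v3 limits what can be detected. The stricter filter, 50 reads in each of 2 libraries, removed that locus, so no value is given for it there.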

Other observations

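Loci near the family by number, a comparison added after the members' values were seen, were counted as the 10 tested loci on each side. Around PAL1 to BRADI_3g49280v3, 6 of 20 were called, 3 higher and 3 lower in jmj1-1, with a median log2 change of 0.07. Around BRADI_3g47110v3 and BRADI_3g47120v3, 5 of 20 were called, 4 of them higher, and around BRADI_3g48840v3, 6 of 20, again 4 of them higher. Around BRADI_5g15830v3, 1 of 20 was called. Over all tested genes, 13.9% were called in either direction, 6.13% as higher and 7.75% as lower.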
